A study of Mus musculus with 27 samples.

Results

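The genes described here are 5 matrix metalloproteinases (Mmp9, Mmp12, Mmp13, Mmp14 and Mmp19) and 3 tissue inhibitors of metalloproteinases (Timp1, Timp2 and Timp3). They were taken by symbol from a table of 19069 named genes in 27 libraries of mouse bone marrow-derived macrophages. All 8 were found in the table, and all 8 were among the 13297 genes with at least 1 CPM (reads of a gene scaled so that libraries of unequal depth can be set side by side) in at least 3 libraries, which were tested. Marrow cells of C57BL/6 mice received 5 Gy of protons as a FLASH beam (an ultra-high dose rate), 5 Gy as a standard proton beam, or no irradiation (0 Gy), and were afterwards grown into macrophages with 10 ng/ml CSF-1 over 7 days. Each arm was then split for 2 days into LPS at 100 ng/ml (M1), IL-4 at 20 ng/ml (M2) or control medium (M0), which gave 9 groups of 3 libraries: FLASH M1, M2 and M0, standard M1, M2 and M0, and non-irradiated M1, M2 and M0. All groups shared the strain, the serum medium and the CSF-1 step. The dose was given to marrow cells and not to finished macrophages, and no sorting step is described, so a library can hold other marrow cells. Whether the 3 libraries of a group came from separate cultures or animals is not stated, and the p-values therefore measure the spread between these libraries, which may be technical.

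Matrix metalloproteinases are zinc enzymes made as inactive precursors; once activated they cut collagens, elastin, gelatins and other proteins of the extracellular matrix, as well as cytokines and receptors. The TIMPs bind the active site of the mature enzymes, and the balance of enzyme and inhibitor sets how much matrix is cut. Macrophages are a main source of Mmp12, the macrophage elastase, and in mouse tissues they also make Mmp9 (gelatinase B), Mmp13 (a collagenase that cuts fibrillar collagen) and Mmp14 (a membrane-bound collagenase that also activates other precursors). Mmp19 is a secreted protease of basement membrane proteins. Timp1 and Timp2 are soluble, Timp2 also takes part in the activation of the Mmp2 precursor by Mmp14, and Timp3 stays bound to the matrix and inhibits ADAM proteases as well.

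Mmp12 and Mmp13 lie next to each other on chromosome 9, and their values were high in the same libraries, so their promoter windows are shown. RefSeq windows on GRCm38.p6, from 250 bases before to 50 bases after an annotated start, were at hand for 6 of the 8 genes, as 7 windows of 300 bases. The windows were searched on both strands for TGANTCA (the AP-1 motif), for TTC and GAA 4 bases apart (a STAT6-type motif) and for TTC and GAA 3 bases apart (a GAS motif). The AP-1 letters stood in 2 of the 7 windows, those of Mmp13 (chr9:7272264-7272563, plus strand) and of one of the 2 Mmp12 starts (chr9:7347124-7347423, plus strand), and are in capitals below.
Mmp13: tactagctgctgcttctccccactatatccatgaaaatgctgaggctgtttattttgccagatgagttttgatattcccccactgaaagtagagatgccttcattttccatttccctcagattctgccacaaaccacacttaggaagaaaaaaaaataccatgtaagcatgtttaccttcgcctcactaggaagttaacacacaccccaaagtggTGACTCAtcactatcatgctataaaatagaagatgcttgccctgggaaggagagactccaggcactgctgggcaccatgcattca
Mmp12: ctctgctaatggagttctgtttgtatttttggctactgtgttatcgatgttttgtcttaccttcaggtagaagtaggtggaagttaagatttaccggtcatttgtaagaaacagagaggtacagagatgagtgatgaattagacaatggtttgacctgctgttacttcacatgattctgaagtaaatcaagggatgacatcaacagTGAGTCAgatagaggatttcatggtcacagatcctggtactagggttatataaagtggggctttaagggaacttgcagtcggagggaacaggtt
The first base of the motif lay at -35 from the Mmp13 start and at -44 from this Mmp12 start. The window of the other Mmp12 start (chr9:7344147-7344446) and those of Mmp14, Timp1, Timp2 and Timp3 held none of the 3 motifs. Among 32851 promoter windows of the same length, 7.81% held the AP-1 letters, 6.95% the STAT6-type letters and 8.3% the GAS letters, so the matches describe these windows and are not evidence of binding.

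From the step between low values, each library held about 20680000 to 25840000 assigned reads, and 1 CPM stood for 20.5 to 26.8 reads. The labels were compared with the data on an LPS axis (29 response genes) and an IL-4 axis (25 genes), neither with a protease or inhibitor among its genes, on which 0 is the mean of non-irradiated M0 and 1 the mean of non-irradiated M1 or M2. By these axes 22 libraries followed their labels and 5 did not, each of them replicate 1 of an irradiated group. The library labelled FLASH M1 replicate 1 was on neither axis (-0.088 and -0.211), FLASH M2 replicate 1 was past the LPS threshold of 0.5 (1.01), FLASH M0 replicate 1 and standard M1 replicate 1 were past the IL-4 threshold (0.704 and 0.785), and standard M2 replicate 1 was past the LPS threshold (1.06). Within each irradiated arm the replicate 1 libraries thus lay 1 at each state, with all 3 under another label in the FLASH arm and M1 and M2 under each other's label in the standard arm. Whether labels were exchanged cannot be settled from the files, so the values of irradiated groups are given by label, and what replicate 1 of those groups received is uncertain. The p53 target Cdkn1a, a check of irradiation, had 478 to 858 CPM in the 18 irradiated libraries and 168 to 353 CPM in the 9 non-irradiated ones, without overlap. Of 8 macrophage markers 7 were in the table under the searched symbol, and their sum was 10974 to 24554 CPM with FLASH, 11678 to 23048 CPM with the standard beam and 5908 to 24535 CPM without irradiation. Lyz2 alone had 7831 to 20397, 8675 to 19647 and 2969 to 17854 CPM in these 3 arms. Results are given for all 27 libraries as labelled and again without the 5.

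**Figure D1:**
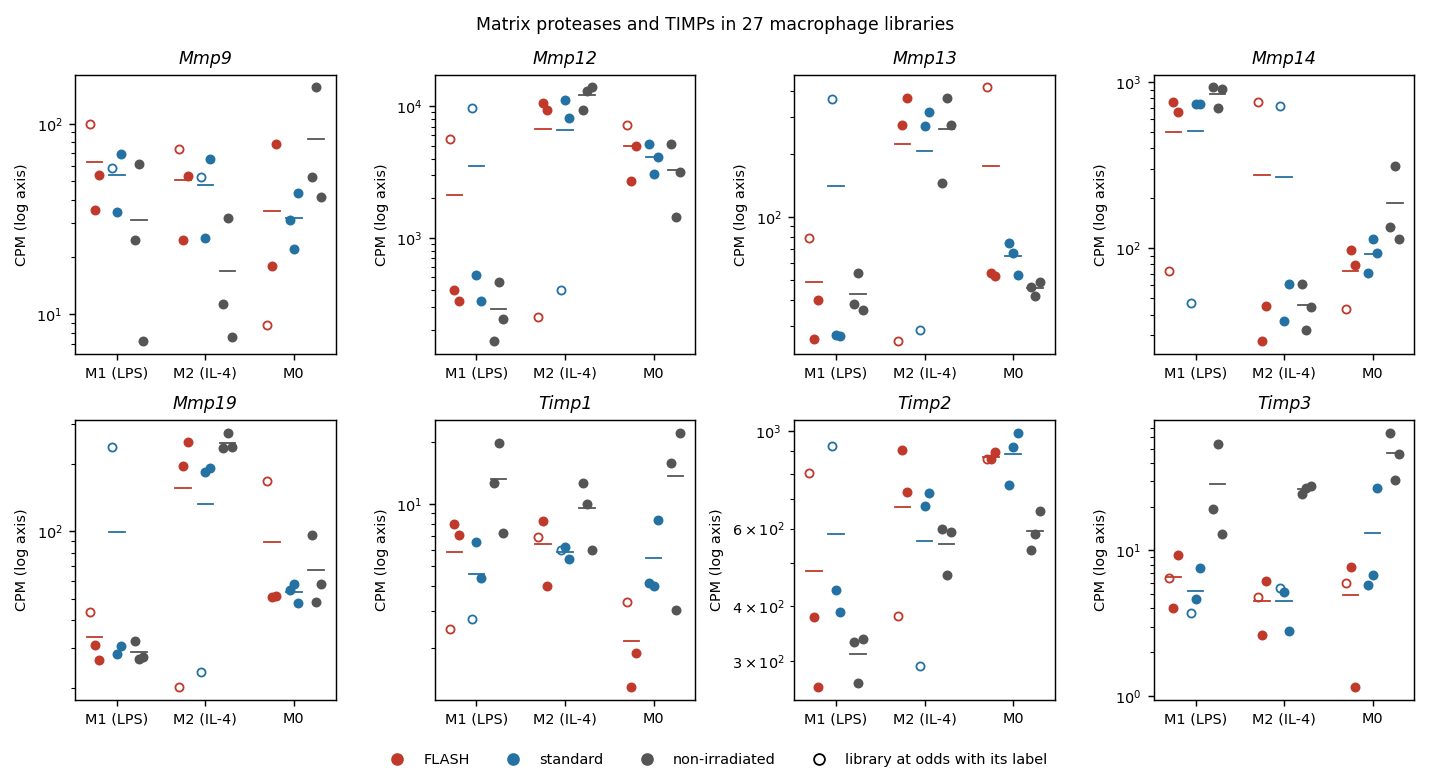
Level of each gene in CPM (log axis) in every library, by state (M1, M2, M0) and arm (FLASH, standard, non-irradiated); bars are group means of 3 libraries and open circles are the 5 libraries at odds with their labels. Timp3 lies lower in irradiated than in non-irradiated libraries of the same state in every case, while Mmp14 is highest in M1, and Mmp12, Mmp13 and Mmp19 in M2, except in the open circles.

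Non-irradiated M1 cells were set against non-irradiated M0 cells to ask how LPS alone moved these genes. Mmp14 was the protease with more RNA under LPS, while Mmp12, Mmp19 and the inhibitor Timp2 had less. Mmp14 had 931, 700.5 and 913 CPM in non-irradiated M1, against 134, 312 and 113 CPM in non-irradiated M0. The groups did not overlap, and the log2 fold change was 2.32. Mmp12 had 164, 464 and 241 CPM in M1, against 5185, 1447 and 3187 CPM in M0, again without overlap (log2 fold change -3.45). Mmp19 had 32.5, 26.9 and 27.5 CPM in M1, against 96.1, 48.1 and 58.2 CPM in M0, and all M1 values lay below all M0 values (log2 fold change -1.15). Timp2 had 332, 267 and 335.5 CPM in M1, against 535.5, 584.5 and 658.5 CPM in M0, also without overlap (log2 fold change -0.93). The share of all genes tested that do not overlap between these groups was not counted, so the separation only describes these values.

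The other 4 genes overlapped between M1 and M0. Mmp9 had 24.4, 61.7 and 7.24 CPM in M1, against 52.9, 155 and 41.2 CPM in M0, and the M1 library at 61.7 CPM was above 2 of the M0 libraries. At each replicate number, the order in which values are given, Mmp9 was lower in M1 than in M0. Mmp13 had 38.1, 54.0 and 35.8 CPM in M1, against 46.1, 41.7 and 48.9 CPM in M0. Timp1 had 12.7, 19.7 and 7.24 CPM in M1, against 15.8, 3.06 and 22.1 CPM in M0. Timp3 had 19.3, 53.7 and 13.0 CPM in M1, against 64.3, 30.7 and 46.5 CPM in M0. Their log2 fold changes were -1.62, -0.12, 0.22 and -0.90, with 95% intervals of -3.22 to -0.01, -2.32 to 2.09, -0.94 to 1.37 and -2.14 to 0.34.

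With all 27 libraries in one limma model (log2(CPM + 0.5), Benjamini-Hochberg adjustment over all genes tested), 0 of the 8 genes were called at an adjusted p below 0.05 for LPS, where 17.4% of all genes tested were called; 3 had an unadjusted p below the threshold. Without the 5 libraries, none of which belongs to this comparison, the fold changes were the same and the shared estimate of the spread was smaller: the standard error of Mmp12 was 0.41 in place of 1.42. In that fit 34.7% of all genes were called and 4 of the 8 genes passed. Mmp14 rose (adjusted p = 3.22e-05), and Mmp12 (6.46e-06), Mmp19 (7.60e-05) and Timp2 (0.000101) fell. With all libraries the shared estimate also takes in the groups that hold a library at odds with its label. One is FLASH M2, where Mmp12 had 249, 10643 and 9386 CPM. Which of the 2 fits describes the spread of these cells better was not tested.

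Non-irradiated M2 cells were set against the same M0 libraries to ask how IL-4 alone moved these genes. Mmp12, Mmp13 and Mmp19 had more RNA under IL-4, and Mmp14 and Mmp9 less. Mmp13 had 146, 374 and 276 CPM in non-irradiated M2, against 46.1, 41.7 and 48.9 CPM in non-irradiated M0 (log2 fold change 2.43). Mmp12 had 9414, 13164 and 13950.0 CPM in M2, against 5185, 1447 and 3187 CPM in M0 (2.06). Mmp19 had 234, 274 and 237 CPM in M2, against 96.1, 48.1 and 58.2 CPM in M0 (1.93). None of these 3 genes overlapped between the groups. Mmp14, the protease that was higher under LPS, had 60.8, 32.1 and 44.5 CPM in M2, against 134, 312 and 113 CPM in M0 (log2 fold change -1.91). Mmp9 had 11.4, 31.9 and 7.63 CPM in M2, against 52.9, 155 and 41.2 CPM in M0 (-2.27). Neither overlapped.

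Among the inhibitors Timp1 and Timp2 overlapped between M2 and M0, and Timp3 did not. Timp1 had 12.7, 9.95 and 5.98 CPM in M2, against 15.8, 3.06 and 22.1 CPM in M0 (log2 fold change -0.19). Timp2 had 598, 471 and 588.5 CPM in M2, against 535.5, 584.5 and 658.5 CPM in M0 (-0.10). Timp3 had 24.4, 27.1 and 27.8 CPM in M2, against 64.3, 30.7 and 46.5 CPM in M0 (-0.76, 95% interval -2.003 to 0.48). With all libraries 0 of the 8 genes were called in limma, against 9.83% of all genes tested, and 3 had an unadjusted p below 0.05. When the 5 libraries were left out 5 of the 8 were called, against 26% of all genes. Mmp13 (adjusted p = 4.49e-06), Mmp12 (0.00151) and Mmp19 (7.46e-07) rose, and Mmp14 (0.000393) and Mmp9 (0.0337) fell.

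Markers of cell types also differed between these states. The neutrophil marker sum was 155 to 192.5 CPM in non-irradiated M1 and 21.8 to 227.5 CPM in non-irradiated M2, against 304 to 687 CPM in non-irradiated M0, without overlap with M0. Lcn2, 1 of its 12 genes, had 4.55 to 148.5 CPM in the 9 non-irradiated libraries, so a sum can rest largely on it. The sum of 7 macrophage markers was 11757 to 24535 CPM in M1 and 5908 to 6857 CPM in M2, against 14703 to 17991 CPM in M0, and M2 lay below M0 throughout. Lyz2 alone had 2969 to 17854 CPM in these 9 libraries, and no other marker of the sum passed 2257 CPM. The macrophage sum thus leans on 1 gene and is not a measure of macrophage number. The stromal marker sum was 46.2 to 164 CPM in M1 and 60.7 to 181 CPM in M2, against 106 to 431 CPM in M0, with overlap. The osteoclast marker sum was 430.5 to 608 CPM in M1 and 2286 to 2973 CPM in M2, against 944 to 1228 CPM in M0, without overlap. The endothelial marker sum was 63.6 to 91.9 CPM in M1, below the 124 to 160.5 CPM of M0, and 151 to 309 CPM in M2, with overlap. The part of these cells in the LPS and IL-4 differences, that of Mmp9 among them, was not tested.

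In the irradiated arms the state comparisons include the libraries that were at odds with their labels. With all libraries as labelled, limma called 0 of the 8 genes in FLASH M1 against FLASH M0 (0% of all genes; 2 members with an unadjusted p below 0.05), in FLASH M2 against FLASH M0 (0%; 1 member), in standard M1 against standard M0 (0%; 0 members) and in standard M2 against standard M0 (0.474%; 0 members). Mmp14 had 73.6, 762 and 661 CPM in FLASH M1 and 757, 27.6 and 45.0 CPM in FLASH M2, against 43.3, 97.8 and 79.1 CPM in FLASH M0. It had 47.0, 742 and 739.7 CPM in standard M1 and 713, 36.7 and 61.0 CPM in standard M2, against 71.6, 113 and 93.2 CPM in standard M0. In each M1 and M2 group replicate 1, given first, was the library that stood apart.

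Mmp12 was split in the same libraries. It had 5665, 404 and 330.3 CPM in FLASH M1 and 249, 10643 and 9386 CPM in FLASH M2, against 7209, 2714 and 4987 CPM in FLASH M0. It had 9729, 524 and 333 CPM in standard M1 and 402, 11163 and 8099 CPM in standard M2, against 5155, 3082 and 4135 CPM in standard M0. Replicate 1 of FLASH M0 was the highest of its group. Mmp13 had 79.6, 26.1 and 40.0 CPM in FLASH M1 and 25.3, 277 and 372 CPM in FLASH M2, against 419, 53.8 and 51.9 CPM in FLASH M0. It had 367, 26.98 and 26.7 CPM in standard M1 and 28.5, 273 and 318 CPM in standard M2, against 74.9, 66.9 and 52.9 CPM in standard M0. Here the library labelled FLASH M0 replicate 1 carried the highest Mmp13 level of all 27.

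Mmp19 followed Mmp13 in this. It had 43.4, 31.2 and 26.6 CPM in FLASH M1 and 20.2, 195 and 251 CPM in FLASH M2, against 167, 51.0 and 51.1 CPM in FLASH M0. It had 237.5, 28.2 and 30.8 CPM in standard M1 and 23.5, 184 and 191 CPM in standard M2, against 54.9, 58.2 and 47.7 CPM in standard M0. Timp2 had 804, 378 and 261 CPM in FLASH M1 and 379, 908 and 726 CPM in FLASH M2, against 864, 864 and 897 CPM in FLASH M0. It had 927, 436 and 387 CPM in standard M1 and 292, 674 and 723 CPM in standard M2, against 753, 918 and 989.9 CPM in standard M0. In both genes replicate 1 of each M1 and M2 group again lay outside the range of the other pair, which in FLASH M1 was a small step for Mmp19 and a large one for Timp2.

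Without the 5 libraries the state responses of the irradiated arms could be read, though these libraries were left out for their state genes and the calls only describe the 13 irradiated libraries that remain. In FLASH M1 against FLASH M0, 5 of the 8 genes were called, against 24.6% of all genes tested. Mmp14 (log2 fold change 3.005) and Timp1 (1.95) rose, and Mmp12 (-3.33), Timp2 (-1.49) and Mmp19 (-0.82) fell. The Timp1 call (limma adjusted p = 0.0394) rests on 2 libraries in each group at low levels. They had 7.95 and 7.06 CPM in FLASH M1, against 1.29 and 1.89 CPM in FLASH M0. Timp1 was not called in standard or non-irradiated M1 against M0. In standard M1 against standard M0, 5 of the 8 were called, against 23.4% of all genes. Mmp14 rose (3.02), and Mmp12 (-3.27), Mmp13 (-1.24), Timp2 (-1.10) and Mmp19 (-0.85) fell. In FLASH M2 against FLASH M0, 3 of the 8 were called, against 12%: Mmp13 (2.59) and Mmp19 (2.10) rose, and Mmp14 (-1.31) fell. In standard M2 against standard M0, 2 of the 8 were called, against 14.3%: Mmp13 (2.19) and Mmp19 (1.80) rose. Mmp12 had a log2 fold change of 1.44 in FLASH M2 (adjusted p = 0.0765) and of 1.24 in standard M2 (adjusted p = 0.0889), neither past the threshold in limma. With all libraries as labelled these Mmp12 values had the opposite sign, -0.66 in FLASH M2 and -0.28 in standard M2, as had Mmp14 in FLASH M2 (0.50).

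**Figure D2:**
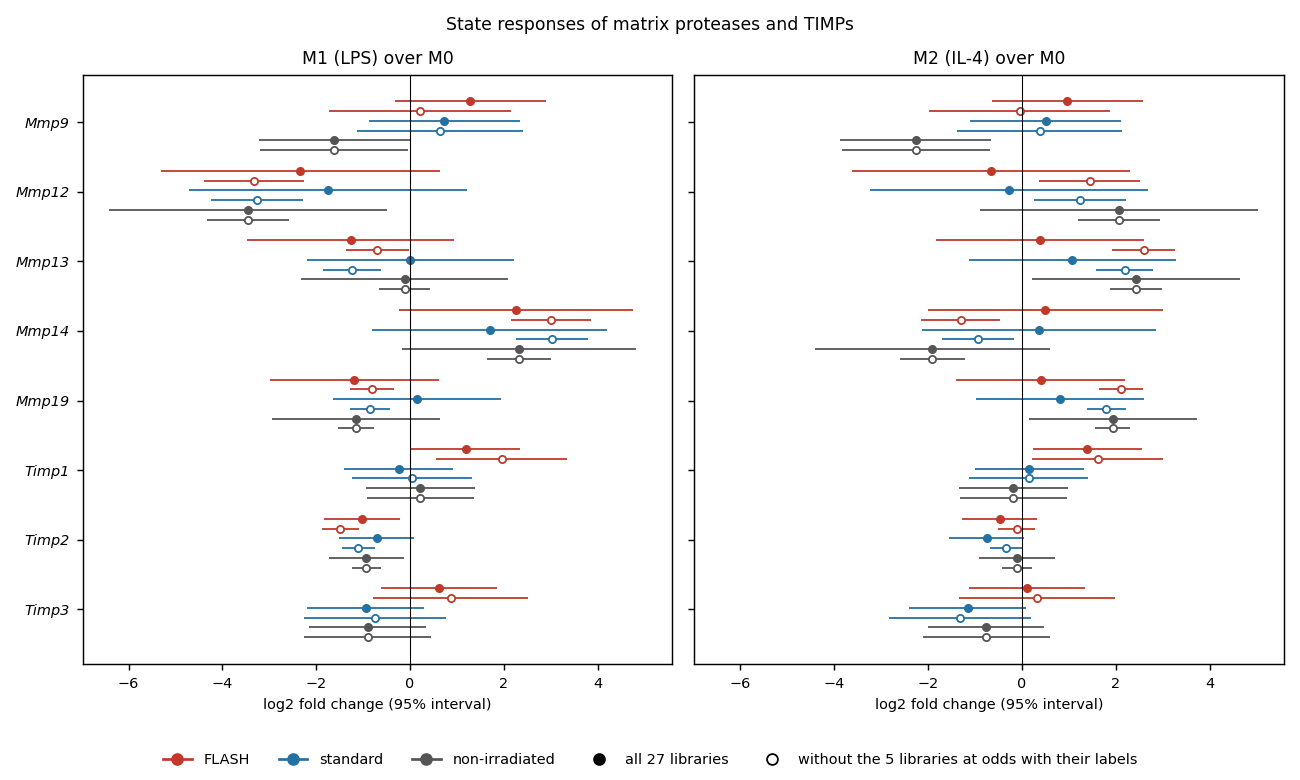
Log2 fold change of each gene in M1 over M0 (left) and M2 over M0 (right), with 95% intervals, for FLASH, standard and non-irradiated cells; filled points use all 27 libraries and open points leave out the 5 at odds with their labels. Mmp14 lies at 3.005, 3.02 and 2.32 in M1 over M0 without the 5 libraries, and the intervals of Mmp12, Mmp13, Mmp14 and Mmp19 are wider with all 27.

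Ordered by their own state axes instead of their labels, the libraries fell into sets that some of the genes separated. These positions are a description and carry no test. The share of all genes that separate the same sets was not counted, so the separation cannot be called particular to these genes. The 9 libraries past 0.5 on the LPS axis had 661 to 931 CPM of Mmp14, and the other 18 had 27.6 to 312 CPM. The same 9 had 164 to 524 CPM of Mmp12 and 261 to 436 CPM of Timp2, against 1447 to 13950.0 CPM and 471 to 989.9 CPM in the other 18, and 20.2 to 32.5 CPM of Mmp19, against 43.4 to 274 CPM. The 9 libraries past 0.5 on the IL-4 axis had 146 to 419 CPM of Mmp13 and 167 to 274 CPM of Mmp19, against 25.3 to 79.6 CPM and 20.2 to 96.1 CPM in the other 18. They also had the 9 highest Mmp12 levels, 7209 to 13950.0 CPM, against at most 5665 CPM elsewhere, and the 9 lowest Mmp14 levels, 27.6 to 61.0 CPM, against at least 71.6 CPM. Mmp9, Timp1 and Timp3 overlapped between these sets: Mmp9, for one, had 7.24 to 73.9 CPM past 0.5 on the LPS axis and 7.63 to 155 CPM in the rest.

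**Figure D3:**
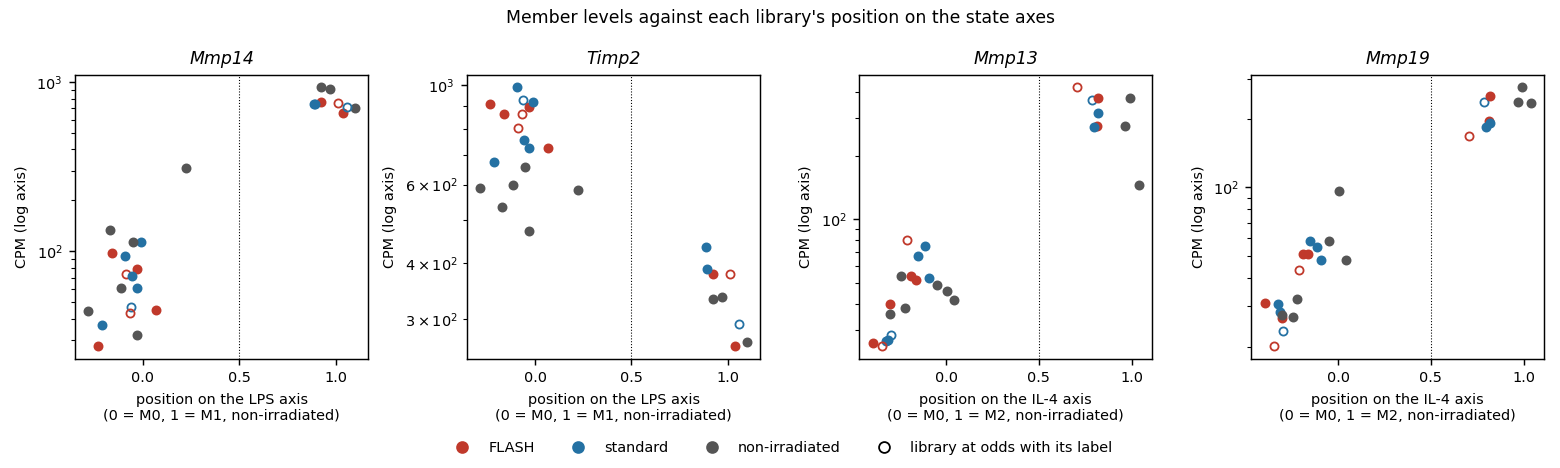
Level in CPM (log axis) of Mmp14 and Timp2 against each library's position on the LPS axis, and of Mmp13 and Mmp19 against its position on the IL-4 axis; 1 point is 1 library, colours give the labelled arm, and open circles are the 5 libraries at odds with their labels. The open circles lie with the libraries of their axis position, for example with Mmp14 at 661 CPM or more past 0.5 on the LPS axis.

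Each irradiated arm was then set against the non-irradiated arm, averaged over M0, M1 and M2, to ask what proton irradiation before differentiation left behind. The inhibitor Timp3 was lower after both beams, the inhibitor Timp1 was lower after FLASH, and none of the 5 proteases passed the test. Timp3 had 6.46, 4.04 and 9.36 CPM in FLASH M1 and 3.69, 4.67 and 7.55 CPM in standard M1, against 19.3, 53.7 and 13.0 CPM in non-irradiated M1. It had 4.78, 2.64 and 6.16 CPM in FLASH M2 and 5.56, 5.16 and 2.80 CPM in standard M2, against 24.4, 27.1 and 27.8 CPM in non-irradiated M2. In M0 it had 5.97, 7.67 and 1.15 CPM with FLASH and 5.79, 6.78 and 26.96 CPM with the standard beam, against 64.3, 30.7 and 46.5 CPM without irradiation. All 9 FLASH libraries and 8 of the 9 standard libraries lay below the lowest of the 9 non-irradiated libraries, 13.0 CPM. The exception was standard M0 replicate 3 at 26.96 CPM, which still lay below every non-irradiated M0 library. The 5 libraries at odds with their labels had 3.69 to 6.46 CPM, within the range of the other irradiated ones. Set against the non-irradiated library of the same state and replicate number, Timp3 was lower in 9 of 9 FLASH and 9 of 9 standard libraries. This count is no further result. Within each labelled state every irradiated library lay below every non-irradiated one, so any matching of libraries would give it. The share of all genes tested that separate in this way was not counted.

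Over the mean of the states Timp3 fell with FLASH by 2.57 on the log2 scale (SE 0.34, limma adjusted p = 5.46e-05) and with the standard beam it fell by 2.23 (SE 0.34, adjusted p = 0.000240). Leaving out the 5 libraries gave log2 fold changes of -2.69 (adjusted p = 0.000390) and -2.21 (adjusted p = 0.00122). By state and with all libraries, Timp3 fell in FLASH M0 (-3.36, adjusted p = 0.00321), FLASH M2 (-2.49, adjusted p = 0.0422) and standard M2 (-2.48, adjusted p = 0.0414). It was not called in FLASH M1 (-1.85, adjusted p = 0.112), standard M1 (-2.12, adjusted p = 0.0596) or standard M0 (-2.08, adjusted p = 0.0795). Both M2 calls were lost when any 1 of the 6 libraries compared was left out (adjusted p of 0.0634 to 0.156) and without the 5 libraries (0.0629 with FLASH and 0.0543 with the standard beam). The FLASH M0 call was lost when only the 2 groups compared were fitted (adjusted p = 0.0504). In standard M0, Timp3 was called without replicate 3 (-2.75, adjusted p = 0.0204). Timp3 shares exon sequence with Syn3 on the opposite strand, and Syn3 reached at most 1.22 CPM in any library; whether the counting used strand is not stated. In bulk RNA, fewer cells of a kind that makes Timp3 and less Timp3 RNA per cell cannot be told apart.

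Timp1 had the next largest difference. It had 2.47, 7.95 and 7.06 CPM in FLASH M1 and 2.75, 6.53 and 4.35 CPM in standard M1, against 12.7, 19.7 and 7.24 CPM in non-irradiated M1. It had 6.94, 8.31 and 4.01 CPM in FLASH M2 and 5.95, 6.16 and 5.38 CPM in standard M2, against 12.7, 9.95 and 5.98 CPM in non-irradiated M2. In M0 it had 3.32, 1.29 and 1.89 CPM with FLASH and 4.11, 3.97 and 8.38 CPM with the standard beam, against 15.8, 3.06 and 22.1 CPM without irradiation. The arms overlapped: non-irradiated M0 replicate 2, at 3.06 CPM, lay below 6 of the 9 FLASH libraries. In FLASH M0 alone the log2 fold change was -2.11 (adjusted p = 0.0502), and it was -2.92 (adjusted p = 0.00451) without non-irradiated M0 replicate 2. Timp1 fell with FLASH over the mean of the states by 1.26 on the log2 scale (SE 0.32, limma adjusted p = 0.0179), and fell by 1.23 without the 5 libraries (adjusted p = 0.0257). With the standard beam the log2 fold change was -0.99 (SE 0.32, adjusted p = 0.0643), not past the threshold. This result depended on single non-irradiated libraries, since the value was -1.26 (adjusted p = 0.00534) without non-irradiated M0 replicate 2 and -1.11 (adjusted p = 0.0463) without non-irradiated M1 replicate 3.

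Timp2 was higher in most irradiated libraries, by a smaller margin. In M0 it had 864, 864 and 897 CPM with FLASH and 753, 918 and 989.9 CPM with the standard beam, against 535.5, 584.5 and 658.5 CPM without irradiation, with no overlap between irradiated and non-irradiated libraries. The share of all genes tested that separate in this way was not counted. Over the mean of the states its log2 fold changes were 0.41 with FLASH (adjusted p = 0.299) and 0.43 with the standard beam (adjusted p = 0.259), neither called with all libraries. In the 22 libraries that followed their labels it rose by 0.39 with FLASH (adjusted p = 0.0125) and by 0.44 with the standard beam (adjusted p = 0.00342) in limma.

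The 5 proteases were not called over the mean of the states, with all libraries or without the 5. With FLASH their log2 fold changes were 0.48 for Mmp9 (95% interval -0.44 to 1.41), 0.14 for Mmp12 (-1.57 to 1.85), 0.14 for Mmp13 (-1.13 to 1.42), -0.49 for Mmp14 (-1.93 to 0.96) and -0.29 for Mmp19 (-1.33 to 0.74). With the standard beam they were 0.55 for Mmp9 (-0.38 to 1.48), 0.27 for Mmp12 (-1.44 to 1.98), 0.08 for Mmp13 (-1.19 to 1.36), -0.33 for Mmp14 (-1.77 to 1.11) and -0.21 for Mmp19 (-1.25 to 0.82). Without the 5 libraries the intervals of Mmp13 narrowed to -0.28 to 0.43 with FLASH and -0.30 to 0.38 with the standard beam. That of Mmp14 with FLASH narrowed to -0.94 to -0.06 around -0.50, which leaves out 0 (unadjusted p = 0.0299, adjusted p = 0.128), and with the standard beam to -0.75 to 0.11. Those of Mmp19 narrowed to -0.41 to 0.08 and -0.45 to 0.02. Mmp9 kept wide intervals, -0.55 to 1.49 and -0.51 to 1.46. Its libraries spread widely within every arm, from 8.82 to 99.2 CPM with FLASH, from 22.1 to 69.1 CPM with the standard beam and from 7.24 to 155 CPM without irradiation. Part of this spread followed the replicate number. In every non-irradiated state replicate 2 was highest and replicate 3 lowest, and in every standard state replicate 3 was highest and replicate 2 lowest. What the replicate number marks is not stated.

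Set against all genes, the counts were these. With all libraries, 2 of the 8 genes were called with FLASH over the mean of the states and 1 of the 8 with the standard beam, against 7.72% and 7.88% of all genes tested; without the 5 libraries 3 and 2 were called, against 14.3% and 17.9%. In M0, 1 was called with FLASH (2.11% of all genes) and 0 with the standard beam (2.02%; 1 member with an unadjusted p below 0.05). In M1, 0 were called with FLASH (2.53%; 1 member with an unadjusted p below 0.05) and 0 with the standard beam (2.60%; 2 members). In M2, 1 was called with FLASH (1.10%) and 1 with the standard beam (1.35%). In the 22 libraries the counts were 2 with FLASH (Timp1 and Timp3) and 1 with the standard beam (Timp2) in M0, against 5.29% and 7.36%. They were 0 in M1 (4.84% with FLASH and 5.52% with the standard beam) and 0 in M2 (3.28% and 3.38%), where 1 and 3 members in M1 and 2 and 1 in M2 had an unadjusted p below 0.05. Both arms share the 9 non-irradiated libraries, so their changes are not independent of each other.

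**Figure D4:**
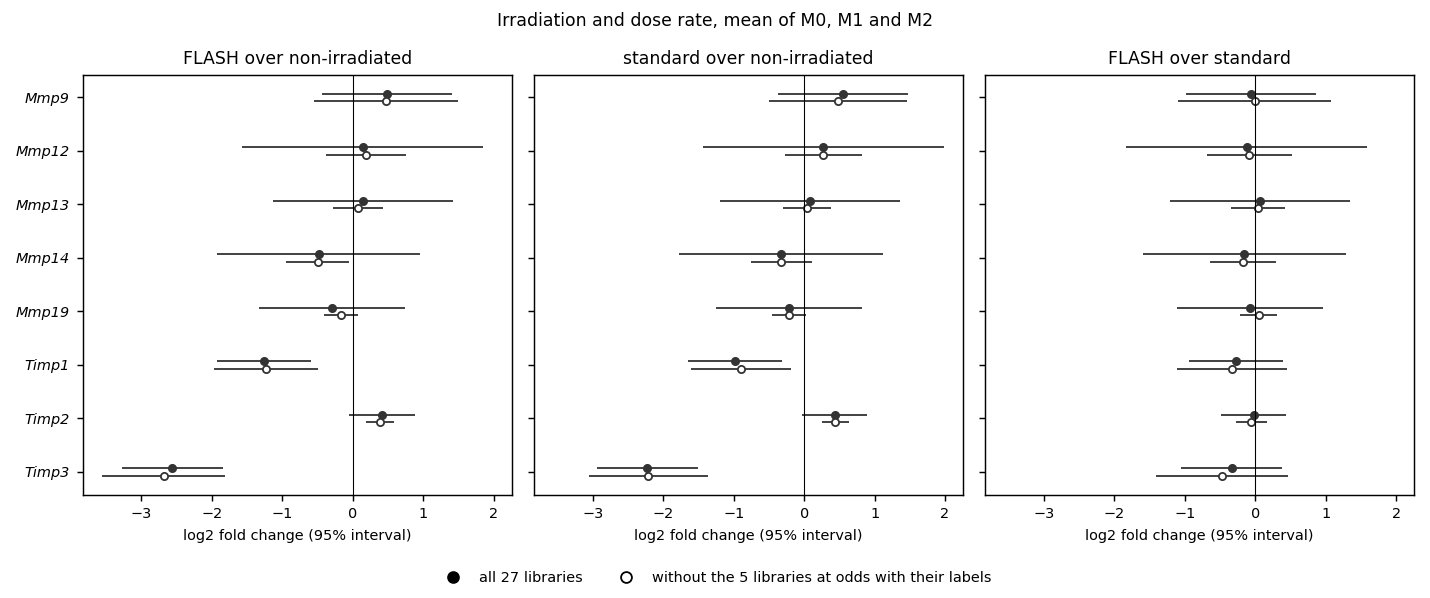
Log2 fold change of each gene over the mean of M0, M1 and M2, with 95% intervals, for FLASH over non-irradiated (left), standard over non-irradiated (middle) and FLASH over standard (right); filled points use all 27 libraries and open points leave out the 5 at odds with their labels. Timp3 lies at -2.57 and -2.23 and Timp1 at -1.26 and -0.99 in the first 2 panels, while every interval in the third includes 0.

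Markers of some other cell types moved with the arms. The summed level of 12 neutrophil and granulocyte precursor markers was 7.22 to 142 CPM (median 22.4) in FLASH libraries and 3.64 to 149 CPM (median 11.7) in standard libraries, against 21.8 to 687 CPM (median 192.5) in non-irradiated ones. Of these 12 genes 10 were called lower with FLASH and 9 with the standard beam over the mean of the states, with all libraries. Of all genes tested 7.72% and 7.88% were called in either direction. Ly6g, on the same list, had a median of 0.736 CPM with FLASH and 0.241 CPM with the standard beam, against 0.467 CPM without irradiation. The sum of 8 mast cell and basophil markers was 0.767 to 4.33 CPM with FLASH and 1.32 to 4.61 CPM with the standard beam, against 5.35 to 23.7 CPM without irradiation. Mpo, a defining granule enzyme of the neutrophil lineage, had a median of 0.788 CPM with FLASH and 0.744 CPM with the standard beam, against 30.4 CPM without irradiation. The sum of 10 fibroblast and stromal markers was 19.1 to 163 CPM (median 62.5) with FLASH and 37.4 to 402 CPM (median 77.0) with the standard beam, against 46.2 to 431 CPM (median 106) without, and none of its 9 tested genes was called with either beam. Lum among the stromal markers, and Camp, Elane, Prtn3, Ctsg, Fcnb, Cebpe and Retnlg among the neutrophil markers, were at 0 in at least 1 library. The 10 osteoclast markers summed to 413 to 3002 CPM with FLASH and 448 to 2903 CPM with the standard beam, against 430.5 to 2973 CPM without, and the 6 endothelial markers to 25.6 to 261 and 33.3 to 253 CPM, against 63.6 to 309 CPM. The part of these cells in the Timp3 and Timp1 results was not tested.

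**Figure D5:**
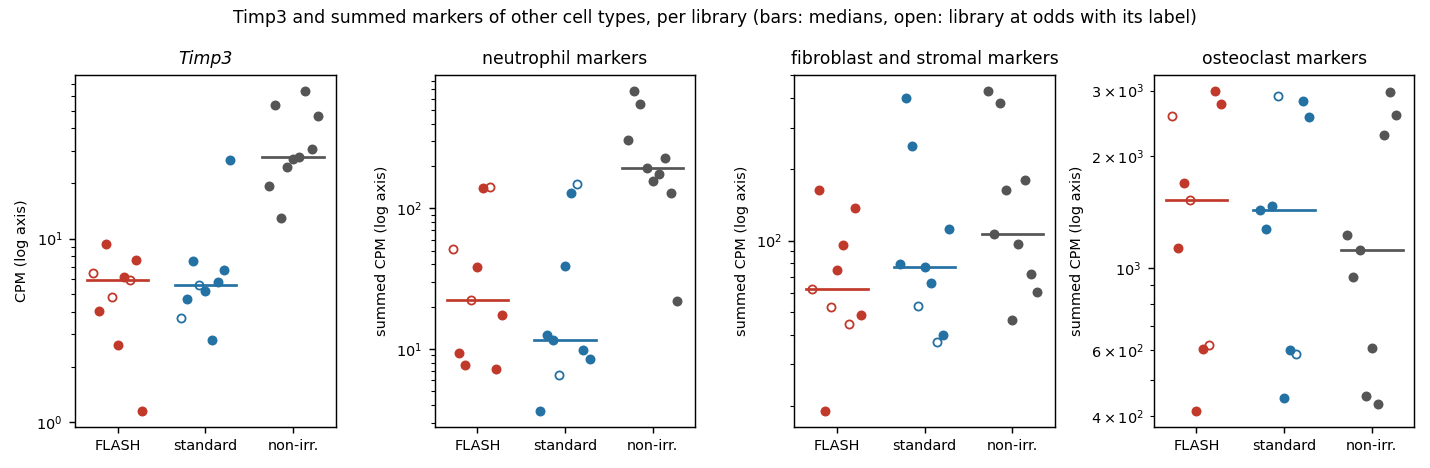
Level of Timp3 and summed level of neutrophil, fibroblast and stromal, and osteoclast markers (CPM, log axes) in each of the 9 FLASH, 9 standard and 9 non-irradiated libraries; horizontal lines are medians and open circles are libraries at odds with their labels. The neutrophil sum has medians of 22.4, 11.7 and 192.5 CPM in the 3 arms, and the stromal and osteoclast sums overlap widely between arms.

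FLASH was compared with the standard beam at the same dose to ask whether dose rate mattered for these genes. No member was called over the mean of the states, with all libraries or without the 5, and no gene of the whole table was either (0% in both); 0 members had an unadjusted p below 0.05 in limma. The log2 differences over the mean of the states were -0.34 for Timp3 (95% interval -1.05 to 0.38), -0.28 for Timp1 (-0.94 to 0.39) and -0.02 for Timp2 (-0.49 to 0.44). For the proteases they were -0.07 for Mmp9 (-0.99 to 0.86), -0.13 for Mmp12 (-1.84 to 1.58), 0.06 for Mmp13 (-1.22 to 1.33), -0.16 for Mmp14 (-1.60 to 1.29) and -0.08 for Mmp19 (-1.12 to 0.95). In the 22 libraries the intervals were -0.69 to 0.52 for Mmp12, -0.65 to 0.30 for Mmp14, -0.34 to 0.41 for Mmp13, -0.21 to 0.31 for Mmp19 and -0.27 to 0.16 for Timp2, all narrower than with all 27, and that of Timp3 was -1.41 to 0.46. Within states 0 of the 8 were called in M0, M1 or M2 (0% of all genes each), and 0 members in M1 and 0 in M2 had an unadjusted p below 0.05 with all libraries. In M0, Timp3 and Timp1 had unadjusted p-values below 0.05, with log2 differences of -1.28 (-2.52 to -0.04) and -1.16 (-2.32 to -0.01). The Timp3 libraries overlapped there, with 5.97, 7.67 and 1.15 CPM in FLASH M0 and 5.79, 6.78 and 26.96 CPM in standard M0. Those of Timp1 did not, with 3.32, 1.29 and 1.89 CPM in FLASH M0 and 4.11, 3.97 and 8.38 CPM in standard M0. These are low values, and the share of all genes tested that separate these groups was not counted.

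Whether irradiation altered the response to LPS or IL-4 was tested as an interaction with the non-irradiated response. With all libraries 0 of the 8 genes were called in limma for FLASH with M1 (0.120% of all genes), the standard beam with M1 (0.0902%), FLASH with M2 (0%) and the standard beam with M2 (0%); 1 member had an unadjusted p below 0.05 in each, Mmp9. Its log2 interactions with M1 were 2.90 for FLASH (95% interval 0.63 to 5.17) and 2.35 for the standard beam (0.08 to 4.62). With M2 they were 3.23 for FLASH (0.96 to 5.50) and 2.77 for the standard beam (0.50 to 5.04), and the adjusted p-values of the 4 were 0.378 to 0.893. In M0, Mmp9 had 8.82, 18.0 and 78.2 CPM with FLASH and 31.4, 22.1 and 43.2 CPM with the standard beam, against 52.9, 155 and 41.2 CPM without irradiation. In M2, Mmp9 had 73.9, 24.7 and 53.3 CPM with FLASH and 52.7, 25.1 and 65.0 CPM with the standard beam, against 11.4, 31.9 and 7.63 CPM without irradiation. In M1 it had 99.2, 35.5 and 53.8 CPM with FLASH and 58.6, 34.3 and 69.1 CPM with the standard beam, against 24.4, 61.7 and 7.24 CPM without. Leaving out the 5 libraries, 0 of the 8 genes were called in these interactions (0.384%, 0.384%, 0% and 0.0226% of all genes), and the Mmp9 interaction with M1 was 1.83 for FLASH and 2.26 for the standard beam, and with M2 it was 2.21 for FLASH and 2.64 for the standard beam.

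Other genes that act on the same proteases or matrix were read from 5 lists written from general knowledge. For LPS in non-irradiated cells with all libraries, 0 of 12 tested other matrix metalloproteinases were called, 2 of 14 other inhibitors, 1 of 13 ADAM and ADAMTS genes, 0 of 14 genes of activation and clearance and 3 of 29 matrix proteins, where 17.4% of all genes tested were called. No list thus had a larger share of calls than all genes. Cstb, a cytosolic inhibitor of cathepsins, rose by 0.52 on the log2 scale (adjusted p = 0.0296), and Reck, a membrane-anchored inhibitor of metalloproteinases named here after its values were seen, fell by 1.19 (adjusted p = 0.0296). Reck was low, with a mean of 2.68 CPM in the higher of the compared groups. Adam19, a membrane-bound sheddase, fell by 1.40 (adjusted p = 0.0135). The basement membrane genes Col4a1 (-2.34) and Lamb2 (-1.50) and the elastic fibre gene Efemp2 (-1.32) fell as well. The median log2 fold change was -1.17 for the matrix list, -0.54 for activation and clearance, -0.42 for the ADAM and ADAMTS genes, -0.31 for the other metalloproteinases and 0.31 for the inhibitors, against -0.01 for all genes tested. The 9 tested stromal markers had a median of -1.56 in the same comparison, and their part in the matrix list was not tested. In the 22 libraries that followed their labels the counts were 0 metalloproteinases, 5 inhibitors, 4 ADAM and ADAMTS genes, 3 genes of activation and clearance and 9 matrix proteins, where 34.7% of all genes were called.

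For IL-4 in non-irradiated cells the counts were 1 of 12 other matrix metalloproteinases, 3 of 14 inhibitors, 4 of 13 ADAM and ADAMTS genes, 0 of 14 genes of activation and clearance and 4 of 29 matrix proteins, where 9.83% of all genes tested were called. Adam8 (log2 fold change 1.52) and Adam15 (0.70), both membrane-bound members of the ADAM family, rose. Mmp27 (-1.68), a matrix metalloproteinase of the same family, and Adam19 (-1.59) fell, as did the matrix genes Bgn (-2.63), Col4a1 (-2.35) and Col18a1 (-1.91). Reck (-1.38), the complement inhibitor gene Serping1 (-1.43), Adam12 (-1.56) and the matrix gene Ecm1 (-0.76) fell too and are named after their values were seen. Reck, Serping1 and Adam12 were low, with means of 2.68, 2.79 and 2.01 CPM in the higher of the compared groups. The list medians were -1.10 for matrix proteins, -0.61 for ADAM and ADAMTS genes, -0.48 for metalloproteinases, -0.14 for activation and clearance and 0.15 for inhibitors, against -0.01 for all genes, while that of the stromal markers was -1.35. In the 22 libraries 1 metalloproteinase, 5 inhibitors, 7 ADAM and ADAMTS genes, 2 genes of activation and clearance and 11 matrix proteins were called, against 26% of all genes.

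For irradiation both beams were set against the same non-irradiated libraries. With FLASH over the mean of the states 0 of 12 other matrix metalloproteinases, 1 of 14 inhibitors, 1 of 13 ADAM and ADAMTS genes, 5 of 14 genes of activation and clearance and 2 of 29 matrix proteins were called, and with the standard beam 1, 0, 1, 4 and 1. The share of all genes called was 7.72% with FLASH and 7.88% with the standard beam, so that 1 call in a list of this size is near the background. Spp1, osteopontin, a matrix protein that macrophages secrete and metalloproteinases cut, rose by 1.67 with FLASH (adjusted p = 0.000991) and 1.74 with the standard beam (adjusted p = 0.000636). Furin, the protease that removes the propeptide of Mmp14, fell with FLASH (-0.47, adjusted p = 0.000400) and with the standard beam (-0.48, adjusted p = 0.000289). Bsg, a surface protein known as an inducer of metalloproteinases, rose by 0.17 (adjusted p = 0.0476) and 0.20 (adjusted p = 0.0241). Elane, the neutrophil elastase, fell (-2.94 with FLASH and -3.29 with the standard beam), as did Ctsg, cathepsin G of the same granules (-2.32 and -2.60). Both are also in the neutrophil marker list given above. Mrc2, an uptake receptor for collagen, fell with FLASH (-1.38), and so did Col6a2, a collagen VI chain (-2.17). Serping1 (-1.14) and Adam12 (-0.85) fell with FLASH, and with the standard beam Adamtsl4 fell (-0.76) and Mmp10 rose (0.75); these 4 genes and Ctsg averaged under 5 CPM in their highest group and are named after their values were seen. No gene of the 5 lists was called between FLASH and the standard beam or in the 4 interactions with all libraries. The matrix list had a median of -0.80 with FLASH and -0.52 with the standard beam, and the other 4 lists had medians of -0.21 to 0.12 and -0.19 to 0.03, against -0.01 for all genes with either beam. In the 22 libraries the FLASH calls of Bsg and Col6a2 were lost, and Adam8, Adamts1, Tgfbi and Thbs1 were called with both beams. With FLASH Mmp10 (0.57), Mmp27 (0.68), Serpina3g (-1.79), Serpine2 (-1.13) and Col4a1 (-1.24) were called as well. All these gained calls are named after their values were seen. In that fit 14.3% of all genes were called with FLASH and 17.9% with the standard beam. In the same libraries Serpinb2, an inhibitor of plasminogen activators, was called in the interaction of FLASH with M1 (3.93, adjusted p = 0.0337).

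The genes whose pattern over the 27 libraries was most like each member, by the Pearson correlation of log2(CPM + 0.5) among 9317 genes averaging at least 5 CPM, are given as a description without a test. The points share the 3 states and the 3 arms. For Mmp14 they were Marcksl1 (r = 0.991), Aoah (0.990) and Ikbke (0.987), and for Mmp12 they were Stac2 (0.988), Egr2 (0.987) and Il11ra1 (0.986). Il6st (0.983), Plaur (0.978) and Atp5a1 (0.978) were closest to Mmp19, Cblb (0.965), Anxa4 (0.953) and Slc36a2 (0.953) to Mmp13, and Cebpa (0.954), Laptm5 (0.953) and Slc17a5 (0.953) to Timp2. The remaining 3 members had no gene so close. Timp3 was nearest to Chsy1 (0.881), Msl2 (0.805) and the neutrophil marker Mpo (0.796), Timp1 to Ankrd27 (0.781), Mtg2 (0.777) and Cdc42se1 (0.767), and Mmp9 to Lmtk2 (0.697), Myo1d (0.671) and S100a11 (0.641). Among the members themselves by the same measure Mmp12 and Mmp14 ran opposite (r = -0.983), Mmp13 ran with Mmp19 (0.937), and Timp1 with Timp3 (0.635). Mmp19 shares exon sequence with Tmem198b on the opposite strand, which reached at most 17.2 CPM.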

How the data were processed

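RNA of 27 libraries in 9 groups of 3 was read as CPM per gene symbol, a signal deposited by the authors whose exact scaling is not given in the sources used here; kallisto 0.46.1, R 4.0.5 and edgeR 3.36.0 are named in the submitters' processing notes, and the filters and the strand setting are not given in the sources used here. The column sums of the deposited signal ran from 929399.7 to 1072727, and 87.04% to 93.67% of values under 20 reads came out whole within 0.01 read, so the values are not plain CPM, whose columns share 1 total, and no count test was used. Recovered depth was 20.5 to 26.8 reads per CPM, and 1 row without a symbol, 0.0048% to 0.00799% of the signal, was left out.

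Genes reaching 1 CPM in 3 or more libraries were modelled as log2(CPM + 0.5) by limma 3.58.1 under R 4.3.3, using statmod 1.5.0, with 9 group means, trended and robust moderation, and Benjamini-Hochberg adjustment within each of 22 comparisons. Calls were made where the adjusted p was below 0.05; fold changes on this scale understate changes of low genes. The fit was tested on simulated data. Besides the 8 members, the text names for each list at most 3 called genes per direction, by fold change, among those with a mean of 5 CPM or more in one of the groups, the higher, and for each member the 3 genes closest in pattern, predicted gene models excluded. One called gene of the inhibitor list is not reported here. The members and lists were chosen with earlier results of these data known. Alternatives were another pseudocount, no filter, columns rescaled to a common total, no trend or robust moderation, a replicate block, only the compared groups, dropping the 5 libraries whose state genes go against the label, and dropping each library in turn.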

Additional observations from a re-analysis of the deposited data

How the results depend on the processing

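Over the mean of the states, the Timp3 calls with FLASH and with the standard beam and the Timp1 call with FLASH held under every alternative run. The counts below are of the 8 members called. The share of all genes called is given above for the fits with all libraries and without the 5. It was not counted in the other fits, so their counts cannot be set against it. Without the 5 libraries at odds with their labels, 4 were called in non-irradiated M1 against M0, 5 in non-irradiated M2 against M0, 5 in FLASH M1 against M0, 3 in FLASH M2 against M0, 5 in standard M1 against M0 and 2 in standard M2 against M0. Against non-irradiated cells the same fit called 2 with the standard beam over the mean of the states, 2 in FLASH M0, 1 in standard M0, 0 in FLASH M2 and 0 in standard M2. There Mmp14 in FLASH M2 against M0 (-1.31), Mmp13 in standard M1 against M0 (-1.24) and Mmp19 in standard M1 against M0 (-0.85) had the opposite sign to the fit with all libraries, which differs only in the libraries used. Values not called in either fit also changed sign there, among them Mmp12 in FLASH M2 (1.44) and standard M2 (1.24) and Mmp14 in standard M2 (-0.94) against M0. With only the compared groups in the fit, the counts were 4 in non-irradiated M1, 4 in non-irradiated M2, 0 in FLASH M0, 1 in standard M0, 0 in FLASH M2 and 0 in standard M2. Rescaled columns gave 1 in non-irradiated M1 (Timp2) and 2 in FLASH M0. A pseudocount of 0.1 gave 0 in FLASH M2, and no filter gave 0 in FLASH M2 and 0 in standard M2. The cause of these shifts was not tested. Rescaling moved the median of all genes by -0.144 (log2) in non-irradiated M1 against M0, -0.109 in FLASH M0 against non-irradiated M0, and by 0.195 with FLASH and 0.137 with the standard beam in the interactions with M1.

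Leaving out 1 library at a time gave 0 to 1 called in FLASH M1 against M0, 1 to 2 with the standard beam over the mean of the states, 1 to 2 in FLASH M0, 0 to 1 in standard M0, 0 to 0 in FLASH M2 and 0 to 0 in standard M2. In FLASH M1 the call was Timp2 without replicate 1, and in FLASH M0 it was Timp1 without non-irradiated M0 replicate 2.

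With the replicate number as a block, 0 members were called in FLASH M2 and 0 in standard M2, and the other 20 counts stayed within 1.5 times. Of 108 pairs of libraries with the same number in different groups, 9 had deviations correlated over 0.1, and of the 18 between groups with no library at odds 0 had. These correlations run over all genes tested, and a single gene such as Mmp9 can still follow the replicate number. The 3 pairs of FLASH M1 with standard M1 (0.36 to 0.595) and the 3 of FLASH M2 with standard M2 (0.464 to 0.783) did deviate together; replicate 1 of all 4 groups is at odds with its label, and with the block 0 members were called in these comparisons too. At 20.5 to 26.8 reads per CPM, depth limits the lowest Timp1 and Timp3 values most.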
